A study of Mus musculus with 4 samples.

Results

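Circular RNAs (circRNAs) of the ischemic penumbra were compared with those of the core frontal region, the part of the infarct core on the side of the frontal lobe, in mouse brain. The comparison holds every circRNA with 10 or more counts over those 2 libraries, which gave 3962 of the 23980 circRNAs in the table. The middle cerebral artery, which feeds much of the cortex and striatum, had been closed for good with a filament (permanent MCAO), and both tissues were taken 3 h later. For each tissue the RNA of 6 mice was pooled and 1 library was made, so there is no replicate check on any difference. A further library from the core near the occipital lobe (core occipital), from the same 3 h model with 6 mice pooled, and 1 library from sham mice are given as values. The sources used here give neither the strain and age of the mice nor the number and sampling time of the sham mice.

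A circRNA forms when the spliceosome joins the end of an exon back to the start of the same or an earlier exon. The product has no free ends and resists exonucleases, so it usually outlasts the linear messenger RNA of its host gene. Circles are abundant in neurons, and many come from genes of the synapse. A sequencing read counts for a circle only when it crosses the back-splice junction.

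The 40 bases across the junction are what a read must match, and they are shown for circles higher in penumbra (the first 6) and lower in penumbra (the last 6). Sequences were read from GENCODE M21 transcripts (GRCm38). The last 20 bases before the junction are in lower case and the first 20 bases after it, the start of the circle's first exon, are in capitals.
Sel1l3 exons 3 to 6, chr5:53181722-53188082, minus strand: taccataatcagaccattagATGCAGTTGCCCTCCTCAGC
Rasgrf2 exons 23 to 24, chr13:91968947-91972285, minus strand: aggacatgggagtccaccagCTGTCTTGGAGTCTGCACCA
Zfp445 exons 4 to 5, chr9:122856699-122857161, minus strand: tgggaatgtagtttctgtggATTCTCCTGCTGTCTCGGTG
Arnt2 exons 4 to 6, chr7:84343742-84354567, minus strand: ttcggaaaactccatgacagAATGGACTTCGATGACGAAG
Vrk2 exons 3 to 7, chr11:26534211-26550075, minus strand: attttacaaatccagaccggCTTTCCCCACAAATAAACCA
Gnai1 exons 2 to 3, chr5:18308553-18308825, minus strand: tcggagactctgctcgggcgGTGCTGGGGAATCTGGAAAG
Relch exons 6 to 10, chr1:105691906-105696596, plus strand: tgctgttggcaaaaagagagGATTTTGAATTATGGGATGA
Smarca1 exons 2 to 23, chrX:47811158-47887198, minus strand: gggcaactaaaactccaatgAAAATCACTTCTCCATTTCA
Nbea exons 2 to 6, chr3:56085242-56091120, minus strand: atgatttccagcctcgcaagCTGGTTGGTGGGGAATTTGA
Kif16b exons 4 to 12, chr2:142834077-142857427, minus strand: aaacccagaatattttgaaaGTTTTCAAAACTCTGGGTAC
Rngtt exons 12 to 13, chr4:33379369-33404253, plus strand: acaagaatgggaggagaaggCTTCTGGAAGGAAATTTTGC
Lrp1b exons 38 to 41, chr2:41110754-41113094, minus strand: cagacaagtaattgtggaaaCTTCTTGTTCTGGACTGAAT

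The base composition of called circles is described further on, and a pair of short circles is printed over its whole length for it. G and C are in capitals, and length and sequence are those of the annotated exons. The Rasgrf2 circle, higher in penumbra, is 195 bases long with a GC content of 59.5%, the highest of the circles called higher, whose median was 48.7%, and the Rngtt circle, lower in penumbra, is 170 bases long with a GC content of 40%.
Rasgrf2 circle: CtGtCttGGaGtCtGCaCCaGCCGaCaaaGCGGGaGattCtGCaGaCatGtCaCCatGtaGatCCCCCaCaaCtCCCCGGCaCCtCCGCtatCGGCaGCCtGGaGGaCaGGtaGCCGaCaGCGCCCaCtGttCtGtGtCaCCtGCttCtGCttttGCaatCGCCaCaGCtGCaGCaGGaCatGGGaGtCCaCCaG
Rngtt circle: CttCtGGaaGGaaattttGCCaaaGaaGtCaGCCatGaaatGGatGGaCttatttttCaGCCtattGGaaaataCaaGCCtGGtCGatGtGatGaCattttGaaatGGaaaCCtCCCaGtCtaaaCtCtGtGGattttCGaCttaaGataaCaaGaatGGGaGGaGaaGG

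Core frontal gave 121393 circRNA counts in all and penumbra 96349, beside 83090 in core occipital and 106558 in sham. Levels are given as CPM, the count scaled to a common library total, on which 1 count is 8.24 CPM in core frontal and 10.4 CPM in penumbra. The 3962 circRNAs held 75.1% of the core frontal and 74.4% of the penumbra counts and came from 1943 host genes. Their median was 20 counts over both libraries, 369 lay exactly at the minimum of 10 counts and 429 circRNAs lay just outside it at 9 counts. Each was tested with Fisher's exact test (two-sided) against the rest of its library and adjusted by Benjamini-Hochberg over all 3962. Calls needed a ratio of at least 2 in either direction together with an adjusted p under 0.05. The test compares these libraries, not the conditions, and the 95% intervals cover counting error only, since there is 1 library a side. PCR copies of a molecule cannot be told from separate molecules without molecular identifiers, so even the counting error may be understated. Among the 265 circRNAs with 100 or more counts, the mean squared deviation from an equal share was 3.08 times the binomial variance, and ratios ran from 0.455 to 2.05.

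Penumbra had 21 circRNAs called higher (0.53% of those tested) and 16 called lower (0.404%). The most abundant circles, from Tulp4, Ssbp2, Gigyf2, Fat3 and Slc8a1, were not among them, and their ratios of penumbra to core frontal lay between 0.895 and 1.07. Counts over both libraries had a median of 28 for those higher and 43 for those lower, beside 20 for all tested. Of the 1977 circles with 10 to 19 counts, 7 were called higher and 2 lower, and of the 1283 with 20 to 49 counts, 5 and 9. Of the 437 with 50 to 99 counts, 7 were called higher and 2 lower, and of the 265 with 100 or more, 2 and 3. When edgeR's exact test was run with an assumed coefficient of variation of 0.2 between libraries, 1 of the 37 remained past an adjusted p of 0.05, that of Snora61.

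**Figure D1:**
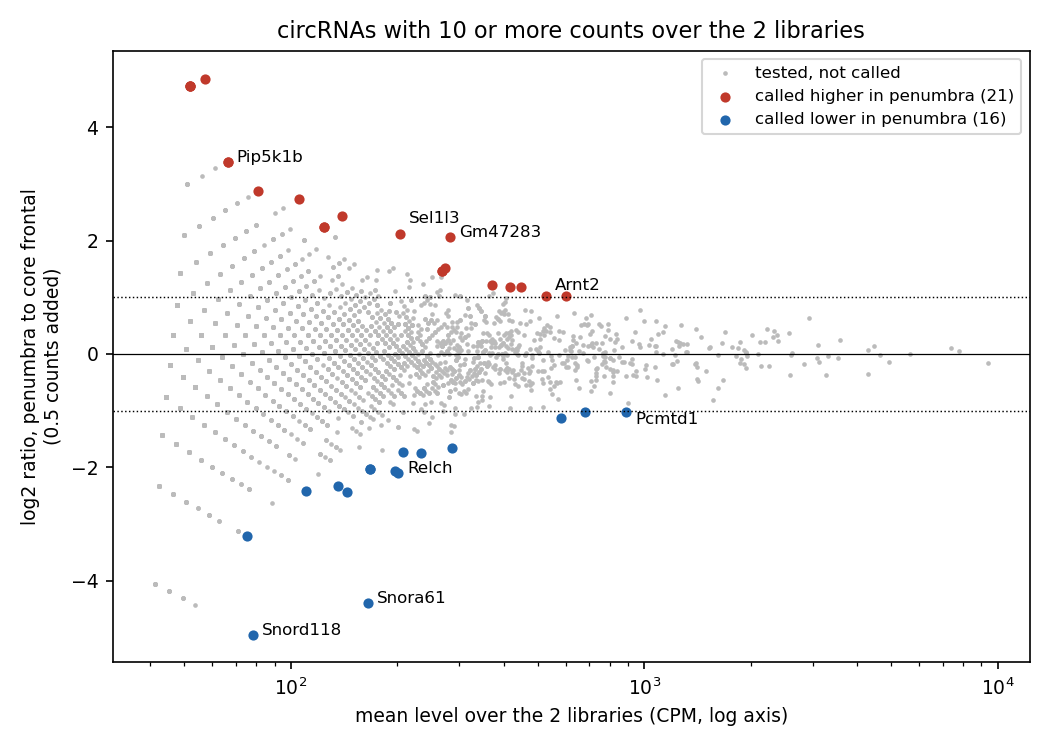
Log2 ratio of penumbra to core frontal (0.5 counts added) against the mean level over both libraries (CPM, log axis) for the 3962 circRNAs, 1 point each. Red points are the 21 called higher and blue points the 16 called lower, dotted lines mark a 2-fold ratio, and the spread narrows towards the most abundant circles.

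Among the circles higher in penumbra were those of several nuclear regulators. Arnt2 encodes a partner of the hypoxia-inducible factors and of neuronal PAS proteins. Zfp445 encodes a zinc finger protein that maintains genomic imprints, and Zbtb16 encodes the transcriptional repressor PLZF.
The Arnt2 circle of exons 4 to 6 had 42 counts in core frontal and 68 in penumbra, with 50 in core occipital and 52 in sham. Its ratio of penumbra to core frontal was 2.04 (95% interval 1.37 to 3.07, Fisher's exact test, Benjamini-Hochberg adjusted p = 0.0338).
Core frontal was the lowest and penumbra the highest of the 4 libraries (346 and 706 CPM), with core occipital at 602 CPM and sham at 488 CPM between them.
The Zfp445 circle of exons 4 to 5 had 33 counts in core frontal, 60 in penumbra, 38 in core occipital and 50 in sham, a ratio of 2.29 (1.47 to 3.62). The Zbtb16 circle of exons 2 to 4 (chr9:48717283-48833099), which includes untranslated sequence, had 31, 56, 28 and 47 counts in the same order, a ratio of 2.28 (1.44 to 3.65).
In both, core frontal was the lowest library and penumbra the highest, at 272 and 623 CPM for Zfp445 and at 255 and 581 CPM for Zbtb16.
A circle of Gtf3c6, a subunit of the RNA polymerase III factor TFIIIC, was at 0 counts in core frontal and at 10 in penumbra, 8 in core occipital and 9 in sham. With the 0 set to 3 counts its ratio of penumbra to core frontal was 4.20, and the 95% interval, which has no upper end, started at 2.82. The other 3 libraries lay between 84.5 and 104 CPM.

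Circles of kinases, G proteins and other signalling genes made up another part of those higher. Vrk2 encodes a serine/threonine kinase of the endoplasmic reticulum and nuclear envelope, Gnai1 the alpha subunit of an inhibitory G protein, and Rasgrf2 a calcium-regulated exchange factor for Ras and Rac.
The Vrk2 circle of exons 3 to 7 had 17 counts in core frontal, 38 in penumbra, 11 in core occipital and 14 in sham, a ratio of 2.82 (1.55 to 5.32). Penumbra stood apart from all 3 other libraries here, at 394 CPM against 131 to 140 CPM, and no other circle of Vrk2 was detected.
The Gnai1 circle of exons 2 to 3 had 5 counts in core frontal, 20 in penumbra, 11 in core occipital and 14 in sham, a ratio of 5.04 (1.84 to 17.2). For this circle core frontal alone was low, at 41.2 CPM beside 131 to 208 CPM in the others.
The Rasgrf2 circle had 5, 23, 6 and 4 counts in the same order, a ratio of 5.80 (2.16 to 19.5). At this exact junction penumbra alone was high, and a neighbouring junction is described further on.
The other called circles of signalling genes, from Pde4dip, Pip5k1b, Ptk2 and Dennd1b, had 1 to 5 counts in core frontal and 12 to 20 in penumbra. Pip5k1b encodes a kinase that makes phosphatidylinositol 4,5-bisphosphate and Ptk2 encodes focal adhesion kinase. With 1 count in core frontal, the Pip5k1b ratio of 15.1 had an interval from 2.24 to 646.

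The remaining circles higher in penumbra came from genes of the cytoskeleton, of membranes and of protein turnover, and from less well described loci. Tmbim6 encodes an endoplasmic reticulum protein that limits cell death (Bax inhibitor 1), and Eml5 a microtubule-associated protein.
The Tmbim6 circle of exons 3 to 4 (chr15:99401580-99402169) had 27 counts in core frontal, 50 in penumbra, 30 in core occipital and 38 in sham, a ratio of 2.33 (1.43 to 3.88). The Eml5 circle of exons 38 to 41 (chr12:98792024-98794619) had 17, 38, 28 and 23 counts, a ratio of 2.82 (1.55 to 5.32).
Usp40, of the ubiquitin-specific proteases, gave a circle (chr1:87965306-87968449) at 0 counts in core frontal and 10 in penumbra, with 5 in core occipital and 4 in sham.
A junction on chromosome 17 (chr17:6477017-6639790) had 48 counts in core frontal and 78 in penumbra, a ratio of 2.05 (1.41 to 3.00). It was assigned to the pseudogene Tmem181c-ps. In the coordinates used to place the related genes, this pseudogene (chr17:6610103-6620925) lies between the ends of the junction and holds neither end. The related genes Tmem181a and Tmem181b-ps lie outside the junction on the same chromosome, and how reads were divided among the copies is uncertain. A junction inside the RefSeq non-coding gene Gm35658 (chr9:63093427-63093625), with no GENCODE host, had 17 counts in core frontal, 39 in penumbra, 17 in core occipital and 32 in sham, a ratio of 2.89 (1.60 to 5.45).
With the dependence of the ratio on GC content removed, 11 of the 17 with a GC value kept their call; the other 4 (Gm47283, Tmem181c-ps, Bcl11b and the junction in Gm35658) have no value, so nothing was removed for them. Those that did not included Zbtb16 (Fisher's exact test replaced by an exact binomial test, Benjamini-Hochberg adjusted p = 0.151), Arnt2 (0.0886), Gnai1 (0.0517) and Rasgrf2 (0.0518).

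Called circles lower in penumbra included exonic circles of Smarca1, Nbea and Lrp1b. Smarca1 encodes an ISWI chromatin remodelling ATPase, Nbea encodes neurobeachin, which is needed for the traffic of synaptic receptors, and Lrp1b encodes a giant receptor of the low-density lipoprotein receptor family.
The Smarca1 circle joins exon 23 of 24 back to exon 2. By annotation it spans all exons but the first and last, 2946 bases if all are kept, which junction reads do not show. It had 111 counts in core frontal, 43 in penumbra, 41 in core occipital and 80 in sham, a ratio of 0.488 (0.335 to 0.700).
On the CPM scale core frontal (914) and sham (751) lay above core occipital (493) and penumbra (446).
The Nbea circle of exons 2 to 6 had 53, 13, 19 and 27 counts in the same order, a ratio of 0.309 (0.155 to 0.575). The Lrp1b circle of exons 38 to 41 had 39 counts in core frontal, 9 in penumbra, 23 in core occipital and 29 in sham, a ratio of 0.291 (0.124 to 0.610), and penumbra alone was low at 93.4 CPM.
The Pcmtd1 circle, which is exon 2 alone (chr1:7120194-7120615), was the most abundant called circle by count. Pcmtd1 encodes a protein with a domain of the isoaspartyl methyltransferases. It had 145 counts in core frontal, 56 in penumbra, 52 in core occipital and 102 in sham, a ratio of 0.487 (0.351 to 0.667).

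The RNA capping enzyme, vesicle traffic and an RNA-binding protein were also among the hosts of circles lower in penumbra. Rngtt encodes the enzyme that caps messenger RNA, Kif16b a kinesin that carries early endosomes, and Relch a protein that links recycling endosomes to the trans-Golgi network.
The Rngtt circle of exons 12 to 13 had 33 counts in core frontal, 6 in penumbra, 4 in core occipital and 20 in sham, a ratio of 0.229 (0.0785 to 0.554). The Kif16b circle had 28, 4, 4 and 13 counts, a ratio of 0.180 (0.0459 to 0.514). The Relch circle had 40, 7, 12 and 28 counts, a ratio of 0.220 (0.0833 to 0.497).
All 3 circles were higher in core frontal and sham than in core occipital and penumbra on the CPM scale.
The circle of R3hdm1 exons 2 to 3 (chr1:128151744-128153399), whose host encodes a protein with an R3H nucleic acid binding domain, had 44 counts in core frontal, 10 in penumbra, 16 in core occipital and 18 in sham, a ratio of 0.286 (0.128 to 0.577). A junction inside the RefSeq non-coding gene Gm31145 (chr4:23771757-23772887) had 97, 35, 36 and 62 counts, a ratio of 0.455 (0.300 to 0.675).
With the GC trend removed, 4 of the 14 with a GC value kept their call, while Snord118 and the junction in Gm31145 have no value. Smarca1 did not (exact binomial test, Benjamini-Hochberg adjusted p = 0.0837), nor did Pcmtd1 (0.0521), Rngtt (0.0711), Kif16b (0.0517), Lrp1b (0.0782) and R3hdm1 (0.0812). Smarca1, Pcmtd1 and Sacm1l were also lost when the libraries were scaled by TMM.

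**Figure D2:**
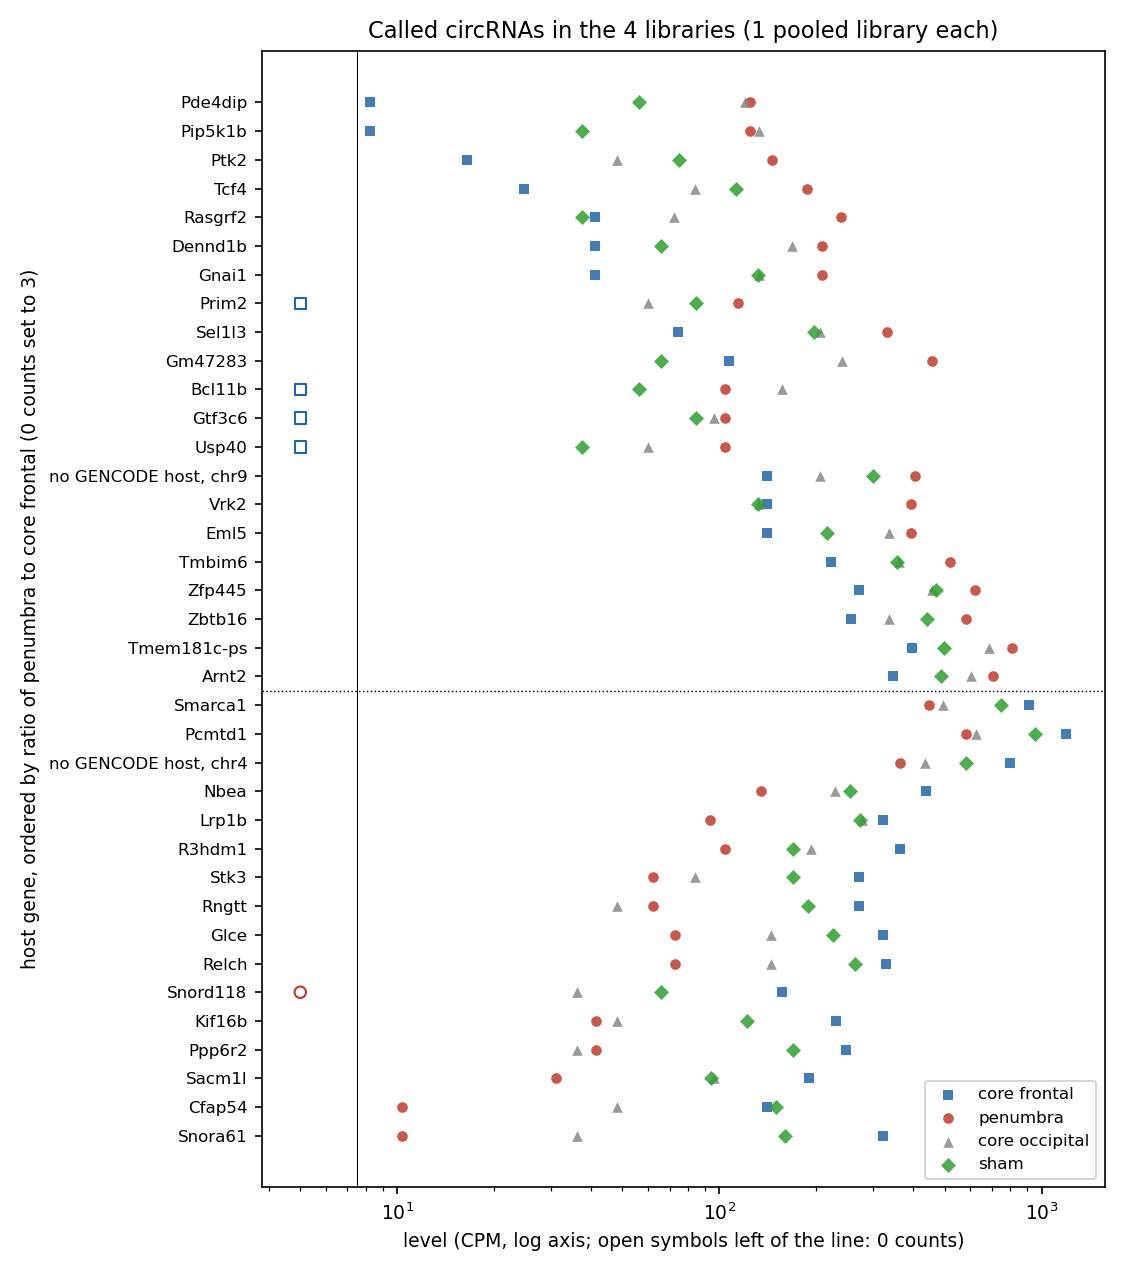
Level (CPM, log axis) of each of the 37 called circRNAs in core frontal (blue squares), penumbra (red circles), core occipital (grey triangles) and sham (green diamonds), ordered by the ratio of penumbra to core frontal. Penumbra was the highest library for 19 of the 21 circles called higher and core frontal the highest for 15 of the 16 called lower, which the choice by that ratio favours.

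The strongest single difference was in small nucleolar RNAs (snoRNAs), which guide or assist the maturation of other RNAs in the nucleolus. Snora61 is an H/ACA snoRNA, a class that guides pseudouridine formation, and Snord118 (U8) is needed to process ribosomal RNA. Both junctions are printed whole because each covers all or most of a small gene. The Snora61 junction joins the last base of the gene to its first, and the Snord118 junction covers 109 of the gene's 135 bases.
Snora61, chr4:132310240-132310369, plus strand: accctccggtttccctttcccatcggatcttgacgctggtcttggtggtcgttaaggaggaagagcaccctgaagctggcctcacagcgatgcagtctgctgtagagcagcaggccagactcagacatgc
Snord118, chr11:69073437-69073545, plus strand: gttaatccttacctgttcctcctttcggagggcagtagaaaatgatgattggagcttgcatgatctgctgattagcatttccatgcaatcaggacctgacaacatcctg
Snora61 had 39 counts in core frontal, 1 in penumbra, 3 in core occipital and 17 in sham (penumbra to core frontal 0.0323, 0.000798 to 0.191, Fisher's exact test, Benjamini-Hochberg adjusted p = 1.6e-05). Snord118 had 19, 0, 3 and 7 counts in the same order.
The same order of libraries, core frontal first and sham second, was seen in a further pair of tested snoRNA junctions that did not pass the test. Snora24 had 12 counts in core frontal, 0 in penumbra, 0 in core occipital and 5 in sham, and Snora34 had 11, 0, 0 and 2. With 0 counts in penumbra, both reached the count minimum through core frontal alone, which favours core frontal as the first library. Their order is therefore no separate support for the difference in Snora61 and Snord118.
The last pair of the 6 tested went the other way without passing: Snord22 had 3 counts in core frontal and 13 in penumbra, and Gm24029 had 3 and 7. Over all 32 snoRNA or snRNA junctions in the table, the share of counts was 0.115% in core frontal (95% Clopper-Pearson interval 0.0963% to 0.135%) and 0.0498% in penumbra (0.0367% to 0.0660%), beside 0.0493% in core occipital and 0.077% in sham. These shares rest on 139 counts in core frontal and 48 in penumbra. They include the counts of Snora61, Snord118, Snora24 and Snora34 given above, so they are no separate support and do not describe the class apart from those junctions.

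Some calls rest on the exact base at which a junction was placed. Junctions within 10 bases at both ends of a called one were found for 3 of the 37, and in each the offset was 3 bases at one end. This check was chosen after the values were seen.
For Bcl11b, the transcription factor of deep-layer cortical and striatal neurons, the called junction (chr12:107989465-107989827) had 0 counts in core frontal and 10 in penumbra. The junction ending 3 bases further on, which has both ends on annotated exon boundaries, had 24 counts in core frontal and 9 in penumbra. The 2 together had 24 counts in core frontal, 19 in penumbra, 31 in core occipital and 20 in sham, a ratio of 0.997 (0.517 to 1.90).
Summed in this way the Bcl11b circle was at the same level in both libraries within this interval, and the called difference was in the position of the junction.
For Rasgrf2 the neighbouring junction had 5 counts in core frontal, 12 in penumbra, 11 in core occipital and 6 in sham. The summed counts were 10, 35, 17 and 10 in the same order, a ratio of penumbra to core frontal of 4.41 (2.14 to 9.98). Over all circles of Rasgrf2, core occipital (433 CPM) was close to penumbra (446 CPM). For Tcf4, a basic helix-loop-helix factor, the neighbour had 14 counts in core frontal and 10 in penumbra. The sum was 17 and 28, a ratio of 2.08 (1.10 to 4.04), down from 7.56 for the called junction alone.

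Whether a difference was shared by the other circles of the same host was examined next. For hosts of circles called higher, 28 of 49 other tested circles had a ratio above 1, and for hosts of circles called lower, 37 of 49 had a ratio below 1. Over all 3962 circRNAs, 1893 had a ratio above 1 and 2069 below. Circles of a host often share an exon end and are not independent.
Sel1l3, which encodes a membrane protein with SEL1 repeats, was the clearest of the higher hosts in this comparison: each of its other 4 tested circles had a ratio above 1, from 1.19 to 4.41. Over all circles of Sel1l3, however, core occipital (1829 CPM) lay above penumbra (1619 CPM), with sham at 1107 CPM and core frontal at 947 CPM. Without the called circle, its summed counts were 106 in core frontal and 124 in penumbra, a ratio of 1.47 (1.13 to 1.93).
Gnai1 and Arnt2 were alike in this, with summed ratios without the called circle of 2.08 (1.10 to 4.04) and 1.51 (1.02 to 2.25).
For Rngtt each of 6 other tested circles had a ratio below 1, from 0.126 to 0.872, and the sum without the called circle was 98 in core frontal and 50 in penumbra, a ratio of 0.643 (0.448 to 0.913). For Lrp1b 9 of 12 others were below 1 and the sum was 257 and 133, a ratio of 0.652 (0.525 to 0.807). Stk3, a kinase of the Hippo pathway, and Cfap54, a protein of the ciliary axoneme, each had 4 of 4 others below 1, with summed ratios of 0.745 (0.555 to 0.992) and 0.742 (0.571 to 0.961).
Other hosts did not show this. For Nbea 6 of 13 other tested circles were above 1 and 7 below, and their sum was 402 counts in core frontal and 342 in penumbra, a ratio of 1.07 (0.925 to 1.24). Its circle of exons 2 to 8, which shares the start of the called circle, had 158 counts in core frontal and 128 in penumbra. Ptk2 and Dennd1b had 19 and 14 other tested circles with summed ratios of 0.972 (0.862 to 1.10) and 1.03 (0.918 to 1.16). For Ppp6r2, a regulatory subunit of protein phosphatase 6, both others were above 1, at 1.26 and 2.07, while the called circle had a ratio of 0.168. The other circles of Kif16b, called lower, had a summed ratio of 1.46 (0.958 to 2.22), and that of Zfp445, called higher, 0.472 (0.0807 to 1.97). Where other circles had more than 3 counts in a library, their sum went with the call for 8 of 14 circles called higher and 9 of 13 called lower. It went against the call for the remaining 6 and 4.

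Summing all circles of a host gene gave a test over every junction of that host. For hosts with 1 detected circle (Snora61, Snord118, Tmem181c-ps, Gtf3c6 and Vrk2 among those called) it repeats the test of that circle. In others 1 circle held most counts: Pcmtd1 had 149 counts in core frontal and 4 without its circle of smallest p. Of 2588 host genes with 10 or more counts, 19 were called higher in penumbra (0.734%) and 17 lower (0.657%) at an adjusted p under 0.05 and a ratio of at least 1.5. Dpp10, Cds1, Yy1, Scn1a and Agtpbp1 are among those with no called circle of their own.
Among those higher, Dpp10, an auxiliary subunit of Kv4 potassium channels, had 135 counts in core frontal, 170 in penumbra, 112 in core occipital and 176 in sham over 44 circles, a ratio of 1.59 (1.26 to 2.00). Cds1, which makes the CDP-diacylglycerol used in phosphoinositide synthesis, had 37 and 67 counts in core frontal and penumbra, a ratio of 2.28 (1.51 to 3.51). Yy1, a zinc finger transcription factor, had 3 counts in core frontal and 19 in penumbra, with 4 in core occipital and 4 in sham, a ratio of 7.98 (2.35 to 42.1).
Only penumbra was high for Yy1, while for Dpp10 sham (1652 CPM) was close to penumbra (1764 CPM).
Among those lower, Glce, the epimerase of heparan sulfate synthesis, had 64 counts in core frontal, 12 in penumbra, 20 in core occipital and 39 in sham over 2 circles, a ratio of 0.236 (0.116 to 0.442). Scn1a, the sodium channel of fast-spiking interneurons, had 33, 6, 14 and 20 counts over 5 circles, a ratio of 0.229 (0.0785 to 0.554). Agtpbp1, a carboxypeptidase that removes glutamates from tubulin, had 195, 98, 96 and 139 counts over 32 circles, a ratio of 0.633 (0.492 to 0.811).
In these 3 hosts core frontal had the highest CPM of the 4 libraries.
Cntn6, a neuronal adhesion molecule, and Slc39a11, a zinc transporter, were called on circles that each lay under the count minimum: 25 counts in core frontal and 4 in penumbra for Cntn6, and 17 and 1 for Slc39a11. With the GC trend removed, an alternative added after the data were seen, 20 of the 31 called hosts with a GC value kept their call. Agtpbp1 (exact binomial test, Benjamini-Hochberg adjusted p = 0.0687), Rngtt (0.057) and Arnt2 (0.0905) did not, and Dpp10 (0.00278), Scn1a (0.0393), Lrp1b (0.00447) and Glce (0.000895) did. The other 5 have no value, so nothing was removed for them. Of these, Ube2e3 still lost its call at an unchanged ratio of 0.404 (exact binomial test, Benjamini-Hochberg adjusted p = 0.0512). A loss close to 0.05 can thus follow from the change of test and adjustment alone.

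**Figure D3:**
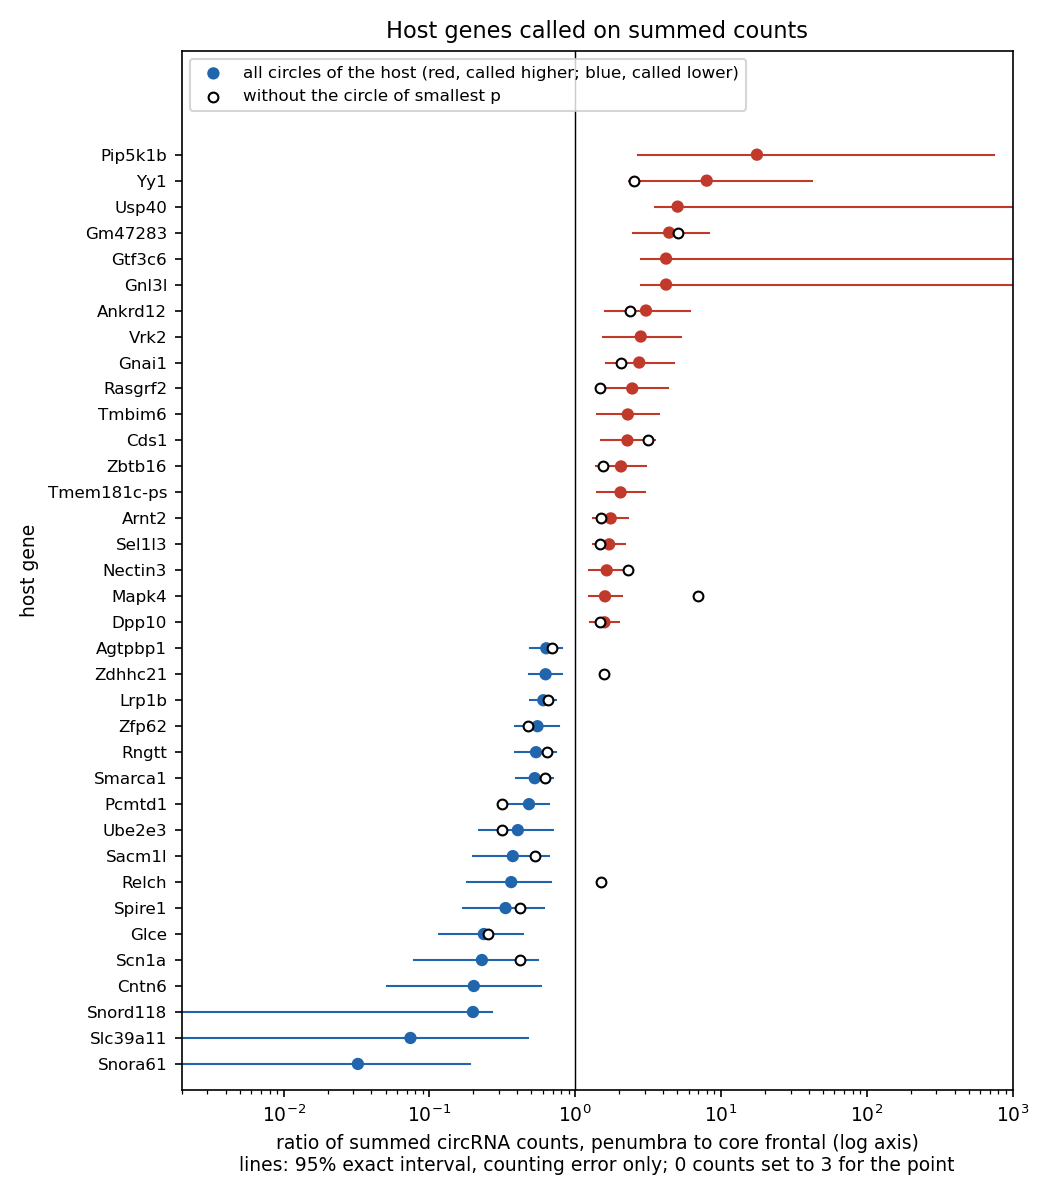
Ratio of penumbra to core frontal (log axis) of the summed circRNA counts of the 36 called host genes, with 95% exact intervals for counting error. Open circles give the ratio without the circle of smallest p. They lie on the same side of 1 as the whole sum except for Relch and Zdhhc21. The choice of hosts by the whole sum, which holds the same counts, favours this. Open circles are left out where the other circles had 3 counts or fewer or where no circle was tested singly.

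Base composition of the circle went with the direction of the call. GC content, taken over all annotated exons between the ends of the junction, could be computed for 17 circles called higher and 14 called lower. Its median was 48.7% in those higher and 41.0% in those lower, against 47.4% over all 3532 tested circles with a value. Under a GC content of 46% lay 2 of 17 higher circles and 13 of 14 lower circles, compared with 39.3% of all tested. The exception among the lower was Snora61 at 57.7%, and the higher circle of lowest GC content was that of Vrk2 at 35.9%.
Over all tested circles, the median ratio was higher in classes of higher GC content, from 0.862 below 40% to 1.26 at 56% and above. Core occipital to sham, a pair that shares no library with this comparison, had the same order, from 0.790 to 1.28. Spearman's correlation between GC content and the log2 ratio was 0.174 for penumbra to core frontal and 0.191 for core occipital to sham over 3532 circles, and 0.367 for penumbra to core frontal over the 245 circles with 100 or more counts. These are descriptions across circles that share their libraries. The count-weighted mean GC content was 47.6% in core frontal, 47.7% in sham, 48.1% in penumbra and 48.3% in core occipital; its part in the called differences was not tested beyond the fits with the trend removed.
The structure of the called circles is given as counts, with no test. Circles starting at exon 2, the first exon with a splice acceptor, were 3 of 17 higher and 7 of 14 lower calls, compared with 31.8% of all tested. Circles of exactly 2 exons, such as those of Zfp445, Gnai1 and Rasgrf2, were 8 of 17 higher and 4 of 14 lower calls, compared with 20.4% of all, so both directions lay above that share.

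**Figure D4:**
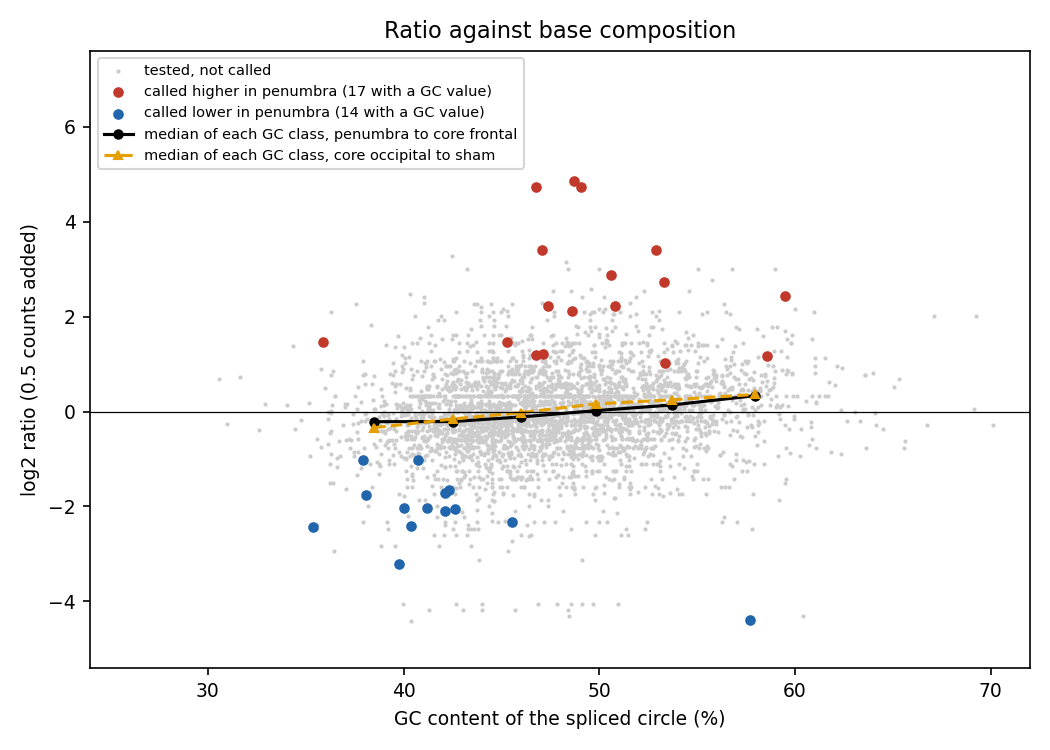
Log2 ratio of penumbra to core frontal (0.5 counts added) against GC content of the spliced circle (%), with called circles in red (higher) and blue (lower). The black line gives the median of each GC class for this comparison and the dashed orange line the same for core occipital to sham; both go up, from ratios of 0.862 and 0.790 in the lowest class to 1.26 and 1.28 in the highest.

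The called circles were then read in core occipital and sham, neither of which entered their choice. Of the 21 called higher, 15 were higher in core occipital than in sham (71.4%), and of the 16 called lower, 13 were lower in core occipital than in sham. Over all 3962 tested circles 49.2% were higher in core occipital than in sham. The median ratio of core occipital to sham, taken on the log2 scale with 0.5 counts added, was 1.15 for the 21, 0.626 for the 16 and 1.01 for all tested.
With the GC trend of that ratio removed, its median log2 value was 0.08 for the 21 and -0.57 for the 16.
In the lower group the intervals of 6 of the 16 lay below 1, beside 178 of all 3962 (4.49%), among them Rngtt at 0.256 (0.0637 to 0.766), Ppp6r2 at 0.214 (0.0403 to 0.732) and Snora61 at 0.226 (0.0425 to 0.782). Lrp1b at 1.02 (0.562 to 1.82) and R3hdm1 at 1.14 (0.544 to 2.37) did not share this. In the higher group the intervals of Gm47283 at 3.66 (1.49 to 10.3) and Pip5k1b at 3.53 (1.05 to 15.2) lay above 1, beside 199 of all 3962 (5.02%). The Gm47283 circle had 13 counts in core frontal, 44 in penumbra, 20 in core occipital and 7 in sham, a ratio of penumbra to core frontal of 4.26 (2.26 to 8.63, Fisher's exact test, Benjamini-Hochberg adjusted p = 0.000625). Gm47283 lies at the end of chromosome Y that holds the region shared with chromosome X, and its reads cannot be assigned to Y alone.

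Each of the 21 host gene lists described held 3 calls or fewer, to be read beside the 0.53% called higher and 0.404% called lower of all tested. List medians were taken on the log2 scale with 0.5 counts added and are given as ratios. The list of hypoxia and energy genes had the highest median: 19 of its 25 tested circles, from 13 hosts, had a ratio above 1, and the median ratio was 1.40, beside 0.980 for all tested. Its single call was Arnt2. The circles share hosts, with 6 from Phkb, a regulatory subunit of phosphorylase kinase, and 5 from Pcca, a subunit of propionyl-CoA carboxylase.
By host sum, Pcca had 45 counts in core frontal, 62 in penumbra, 56 in core occipital and 30 in sham, a ratio of 1.74 (1.16 to 2.61) that did not pass (Fisher's exact test, Benjamini-Hochberg adjusted p = 0.127). Ogdh, the oxoglutarate dehydrogenase of the citric acid cycle, had 84 and 90 counts in core frontal and penumbra, a ratio of 1.35 (0.991 to 1.84), and Phkb had 88 and 93, a ratio of 1.33 (0.984 to 1.80).
Hif1a, the hypoxia-inducible factor subunit, had 17 and 8 counts by host sum, a ratio of 0.593 (0.221 to 1.45). Its tested circle alone, the member counted in the list, had 8 and 7, a ratio of 1.10 (0.340 to 3.48). Acaca, acetyl-CoA carboxylase, had a host sum of 139 and 87, a ratio of 0.789 (0.596 to 1.04). The tested circle of Acaca had a ratio of 0.768 (0.572 to 1.03), so the list's members did not all have higher values.
At the other end were the genes of mediator and transcription, with 28 of 42 circles below 1, a median ratio of 0.807 and 1 call, Rngtt, and the glutamate and GABA receptors, with 24 of 39 below 1, a median ratio of 0.825 and no call in either direction. Among receptor genes, the metabotropic receptor Grm5 had 118 counts in core frontal, 71 in penumbra, 48 in core occipital and 69 in sham over all circles, a ratio of 0.758 (0.557 to 1.03). Grin2b had 157 and 112 counts, a ratio of 0.899 (0.699 to 1.15).
Neuronal transcription factors had 3 circles called higher of 71 (Tcf4, Bcl11b and Zbtb16) at a median ratio of 1.03. Of these, Bcl11b and Tcf4 had the ratios of 0.997 and 2.08 given above once neighbouring junctions were summed, and Zbtb16 lost its call with the GC trend removed. Cell and focal adhesion genes had 1 higher and 2 lower of 126, from Ptk2, Lrp1b and Glce, or heparan sulfate synthesis, at 0.995. Active zone and vesicle genes had none of 100, with Cadps, a priming factor of dense-core vesicles, at 29 and 42 counts (ratio 1.82, 1.11 to 3.04), and postsynaptic scaffold genes none of 80, with Psd3 at 20 and 34 counts (2.14, 1.20 to 3.93); neither of these passed the test.
Genes of cyclic AMP signalling had 2 circles called higher of 36 (Gnai1 and Pde4dip), and phosphoinositide metabolism had 1 higher and 1 lower of 63 (Pip5k1b and Sacm1l, a phosphatase of phosphatidylinositol phosphates). A single lower call came from autophagy and trafficking (Relch, of 67), motor proteins (Kif16b, of 35), stress and death kinases (Stk3, of 39), protein phosphatases (Ppp6r2, of 39) and cilium and centrosome (Cfap54, of 25). No circle was called of ion channels (71), calcium pumps and stores (29), the ubiquitin system (66), actin and membrane skeleton (41), chromatin regulators (96), RNA binding and splicing (79) or translation (28). The called hosts Usp40 and Smarca1 are not in the ubiquitin and chromatin lists. Over these 14 lists the median ratio ran from 0.847 for ion channels to 1.09 for translation.

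**Figure D5:**
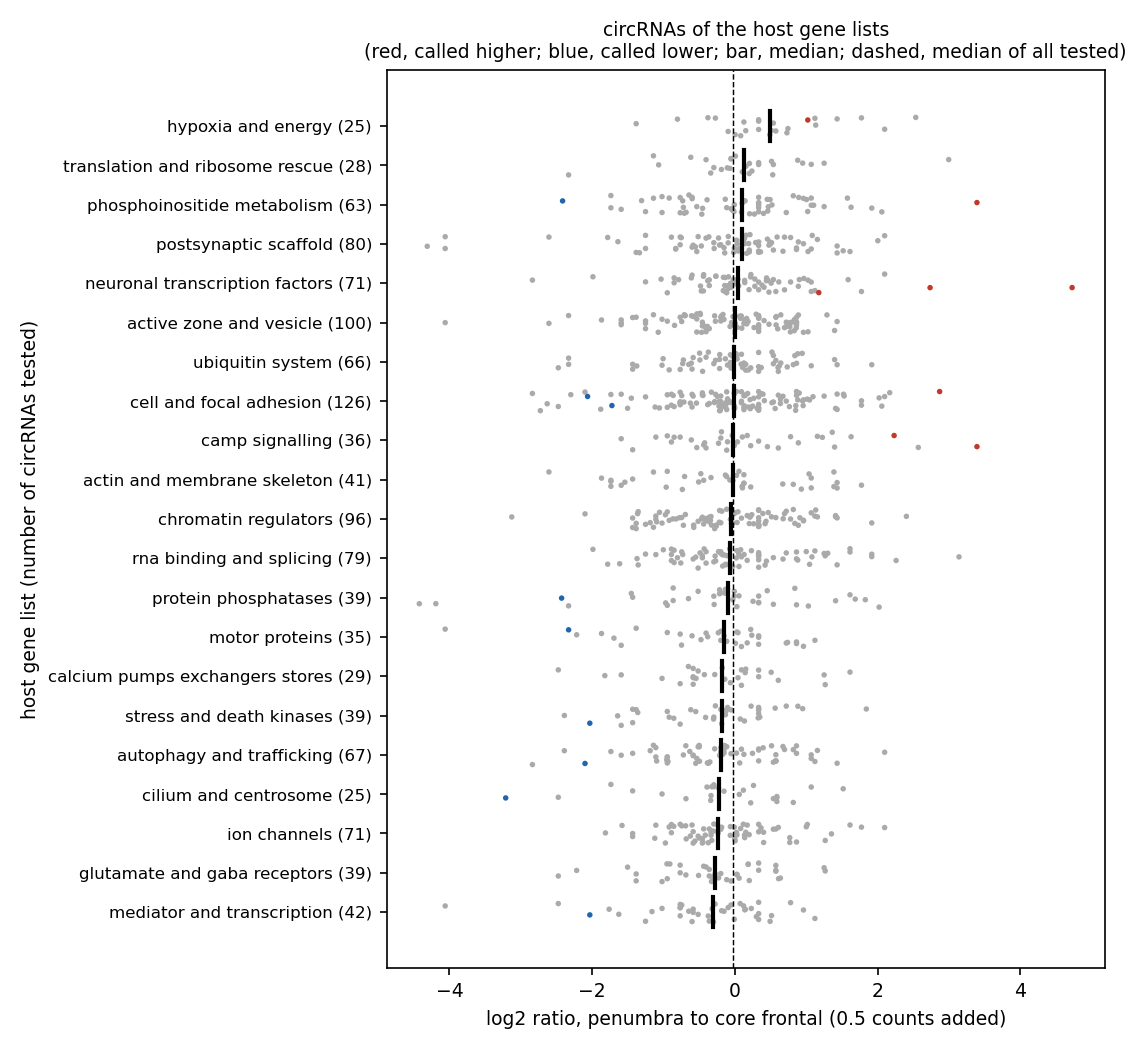
Log2 ratio of penumbra to core frontal (0.5 counts added) of every tested circRNA in the 21 host gene lists, with called circles in red (higher) and blue (lower). The bar is the list's median and the dashed line the median of all tested; the list of hypoxia and energy genes lies furthest to the right, and mediator and transcription furthest to the left.

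Markers of cell types were read through their circles, and many defining markers give none. Circles were found for 6 of 9 neuronal marker genes, and their sum was 155 counts in core frontal and 140 in penumbra (1277 and 1453 CPM), a ratio of 1.14 (0.899 to 1.44), with Slc17a7, Gad1 and Gad2 at 0. Cortical layer markers had a ratio of 1.10 (0.878 to 1.38) and striatal markers 0.868 (0.716 to 1.05), with Drd1, Drd2 and Adora2a at 0.
Oligodendrocyte markers, with circles for 11 of 14 genes, had 783 CPM in core frontal, 1121 in penumbra, 951 in core occipital and 732 in sham, a ratio of 1.43 (1.08 to 1.91), and Mog, Mobp and Myrf were at 0. Markers of ependyma and choroid plexus had 1582, 1121, 1216 and 1192 CPM in the same order, a ratio of 0.709 (0.555 to 0.902). Of its 9 genes Cfap54 (180 counts in core frontal, 97 in penumbra) and Enpp2 had circles, and Foxj1, Ttr and Hydin were at 0.
All 8 microglial and all 4 blood markers were at 0 in the 4 libraries, as were 8 of 10 markers of endothelium and pericytes, so their cells cannot be followed here. The part of cell composition in the called differences was not tested, and in tissue libraries fewer cells of a type and less RNA per cell cannot be told apart.

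Both libraries held a similar number of circRNAs. At least 1 count was found for 16611 circRNAs in core frontal, or 15482 expected at the total of penumbra, and for 16570 in penumbra. Both libraries held 11678, while 4933 were found only in core frontal and 4892 only in penumbra. Of those found in 1 library alone, 19 in core frontal and 4 in penumbra reached 10 counts. The 4 are the called circles of Prim2, Bcl11b, Gtf3c6 and Usp40, and Snord118 had the highest count of the 19. Prim2, the large subunit of DNA primase, had 11 counts in penumbra, 5 in core occipital and 9 in sham.

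At an adjusted p under 0.05 with a ratio under 2 lay another 7 circles, which brings the number past that threshold at any ratio to 44 (1.11%). Those higher were from Atxn1 and Stxbp5. Atxn1 encodes ataxin 1, and its circle of exons 2 to 3 had 2290 CPM in core frontal, 3560 in penumbra, 2696 in core occipital and 2815 in sham, a ratio of 1.55 (1.32 to 1.83, Fisher's exact test, Benjamini-Hochberg adjusted p = 8.4e-05). Stxbp5, or tomosyn, restrains vesicle fusion, and its circle had 717, 1225, 987 and 957 CPM, a ratio of 1.71 (1.28 to 2.28).
In both, core frontal was lowest and penumbra highest.
Those lower were from Crebrf, Nsd2, Zdhhc21, Zfp532 and Dgki, with ratios from 0.545 to 0.778. The Crebrf circle of exons 2 to 4 had 1994 CPM in core frontal, 1131 in penumbra, 1143 in core occipital and 1370 in sham. With the GC trend removed, Stxbp5 (exact binomial test, Benjamini-Hochberg adjusted p = 0.0819), Zdhhc21 (0.0886) and Zfp532 (0.103) no longer passed. The Nsd2 circle of exons 3 to 10, from a histone H3 lysine 36 methyltransferase, had 1162, 633, 770 and 892 CPM.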

How the data were processed

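Ribosomal RNA was removed from total RNA before library construction, per the labels' protocols, which name both a TruSeq and a NEBNext directional kit. The authors deposited whole-number read counts per circRNA, without normalization; TopHat2 2.0.10, Bowtie and the build mm9 are listed per the submitters' processing notes, and the circRNA caller is not given in the sources used here. The coordinates fit GRCm38, with 89.1% of starts on GENCODE M21 exon starts, so host genes and exons were taken from that release, exon numbers being those of the fitting transcript that has most exons. Libraries were grouped by their tissue or treatment label and matched by column name.

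Here counts were scaled to the library total (Python 3.11.15, scipy 1.17.1). Fisher's exact test was used because 1 library a group leaves no spread to estimate; intervals are Clopper-Pearson, and a count of 0 was set to 3 for a ratio. edgeR 4.0.16 and DESeq2 1.42.0 gave alternative scalings, and edgeR's exact test was run at an assumed coefficient of variation. The GC trend was a lowess curve (fraction 0.5) of log2 ratio with 0.5 counts added; the exact binomial test was then made against it. The procedure was tested on simulated data. The text names called circRNAs and host genes, those past the threshold with a smaller ratio, the 5 with most counts, and list members with the highest and lowest ratios at 50 or more counts, beside members chosen after their values were seen. Members, lists and tests were chosen with earlier results of these data known. The deposited FPKM table was not used here, and 1 list and 1 circRNA are not reported here.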

Additional observations from a re-analysis of the deposited data

How the results depend on the processing

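No paired analysis was possible because each group has 1 pooled library and the labels give no shared replicate. With 1 library a side, the spread between libraries could not be estimated. No circRNA past the threshold changed direction. Scaling by TMM or by DESeq2 size factors gave 25 or 24 circRNAs higher and 13 or 12 lower, and a minimum of 30 counts gave 14 and 17, beside 21 and 16. Without a count minimum 2 were higher and 2 lower, since more circRNAs were tested. With a coefficient of variation of 0.2 assumed, edgeR's exact test called 0 higher and 1 lower, with 218 at an unadjusted p under 0.05 beside 509 by Fisher's exact test. With the GC trend removed 18 were higher and 8 lower, and 21 of these were called without it, 6 of them circles with no GC value. Of host genes, 12 were higher and 8 lower when only circles on exon boundaries were summed, and 11 were lower at a ratio of at least 2, where 14 were higher. With 2 or more counts required, 10407 circRNAs were detected in penumbra and 11935 in core frontal. Of the list medians, that of cell and focal adhesion changed sign with the 30-count minimum, from a log2 ratio of -0.01 to 0.14. The medians of cilium and centrosome (-0.23 to 0.09) and postsynaptic scaffold (0.09 to -0.09) also changed sign there, and those of active zone, ubiquitin and cyclic AMP genes, all near 0, did so there or with 2 counts added; the cause was not tested.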

Other observations

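Removing the GC trend also brought further circles past the threshold, of which 2 higher and 2 lower in penumbra are described; they were chosen after their values were seen. The Cacna2d1 circle of exons 12 to 22, from an auxiliary subunit of voltage-gated calcium channels, had 140 CPM in core frontal, 363 in penumbra, 193 in core occipital and 235 in sham. Its ratio was 2.59 (1.41 to 4.94) before and 3.03 after removal (exact binomial test, Benjamini-Hochberg adjusted p = 0.0245). Core frontal and core occipital were both below sham. Supv3l1 encodes a mitochondrial RNA helicase, and its circle of exons 2 to 3 had 3 counts in core frontal and 15 in penumbra, a ratio of 6.30 (1.78 to 33.9) before removal.

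Those lower in penumbra had a higher GC content. Epb41l1, which encodes a neuronal protein 4.1 of the membrane skeleton, had 626 CPM in core frontal, 322 in penumbra, 638 in core occipital and 300 in sham for its circle of exons 11 to 15 (GC content 60.3%), a ratio of 0.514 (0.327 to 0.790) before and 0.410 after. Here the 2 core libraries were high, and penumbra was close to sham. The circle of Arpp21 exons 4 to 6, from a phosphoprotein of neurons regulated by cyclic AMP, had 684, 353, 518 and 347 CPM in the same order, a ratio of 0.516 before and 0.493 after.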
